A study of Mus musculus with 12 samples.

Results

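The 175775 regions described here were captured by MBP-ZBTB43 from mouse lung DNA whose CpGs had been methylated with M.SssI, out of 190469 regions in the deposited peak lists of the experiment. All rows of the SssI list were taken. The lung DNA came from wild type male adult C57BL/6N mice, 2 months old. It was sonicated, methylated with the bacterial enzyme M.SssI after fragmentation, and mixed with beads that carried either MBP-ZBTB43 or MBP alone, with 2 libraries each out of 12 in the series. MBP, maltose-binding protein, was the tag used for capture, and MBP alone measured the background. The authors pooled the duplicates and called peaks with MACS2 against the pooled MBP libraries. There was therefore 1 list, with no spread between replicates and no test. The list holds no read counts, so the number of reads behind a peak is unknown, although the methods give a minimum depth for the libraries. The capture used naked DNA in vitro, so the peaks show where the protein held DNA fragments and not its occupancy in lung cells. The list holds no RNA, so the tissue could not be checked against its markers.

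ZBTB43 belongs to a family of proteins that combine a BTB domain, which mediates contacts between proteins, with zinc fingers that contact DNA. Tracts in which purines and pyrimidines alternate, such as CA repeats (TG repeats on the other strand), can take the left-handed Z-DNA form, and methylation of CpG cytosines is known to favour that form in CG repeats. M.SssI methylates the cytosine of CpG, so a pure CA repeat offers it no target. In what follows, an alternating tract is an unbroken run of alternating purine and pyrimidine of at least 12 bp that holds at least 1 G or C, and a long tract is one of at least 24 bp. A tract is called captured where a peak overlaps it by at least 1 bp. Densities use known bases (not N) of GRCm38, the assembly that mm10 names, and a peak is placed by its midpoint.

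The sequences below come from the highest-scoring peaks and from the densest genes. Each is the longest alternating tract of a peak, in capitals, with 20 bases on either side in lower case, read from the plus strand of GRCm38. That all of them are alternating tracts follows from this choice. The first 4 come from the peaks that share the highest score, the next from the peak ranked 5, and the last 3 from the highest-scoring peaks of Daam2, Pcnx2 and Eya2.
Snx29 intron 4, chr16:11384236-11384298: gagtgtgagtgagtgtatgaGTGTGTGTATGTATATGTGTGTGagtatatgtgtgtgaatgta
outside annotated genes, chr9:52966288-52966354: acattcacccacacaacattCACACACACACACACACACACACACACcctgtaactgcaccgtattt
outside annotated genes, chr7:43378928-43378999: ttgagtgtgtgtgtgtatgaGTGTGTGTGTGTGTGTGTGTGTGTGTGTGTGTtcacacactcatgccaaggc
Fgfr2 annotated span, intron 2, chr7:132885292-132885358: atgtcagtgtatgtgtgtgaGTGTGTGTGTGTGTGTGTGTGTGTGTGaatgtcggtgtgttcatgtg
Cldn14 intron 1, chr16:93966355-93966449: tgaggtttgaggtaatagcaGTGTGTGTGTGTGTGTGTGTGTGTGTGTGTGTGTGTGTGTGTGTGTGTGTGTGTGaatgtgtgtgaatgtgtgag
Daam2 intron 1, chr17:49508111-49508253: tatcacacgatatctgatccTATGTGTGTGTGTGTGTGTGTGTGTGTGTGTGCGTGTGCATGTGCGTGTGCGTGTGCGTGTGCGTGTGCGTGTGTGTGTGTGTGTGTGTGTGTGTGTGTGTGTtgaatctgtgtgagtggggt
Pcnx2 intron 4, chr8:125888422-125888502: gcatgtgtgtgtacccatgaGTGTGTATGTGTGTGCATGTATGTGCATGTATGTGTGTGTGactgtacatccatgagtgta
Eya2 intron 5, chr2:165711078-165711164: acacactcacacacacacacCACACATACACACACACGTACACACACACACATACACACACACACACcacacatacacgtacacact
Of the tracts of the 5 highest-scoring peaks, 4 were pure TG or CA repeats, of 27, 32, 27 and 55 bp, and the one in Snx29, of 23 bp, was a TG tract broken by TA steps. None of the 5 held a CpG. The tract in Daam2 was 103 bp long and held 6 CpGs, that in Eya2 was 47 bp long with 1 CpG, and that in Pcnx2 was 41 bp long with none.

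Alternating tracts were a feature of most of the list. On the autosomes, 91.6% of the 169284 peaks overlapped a long tract by at least 1 bp. Of 11979192 tiles of 200 bp that cover the autosomes without gaps in sequence, 3.10% held at least 24 bp of such a tract. The rule for tiles is the stricter, and peaks vary in width. Seen from the tracts, 48.3% of 425565 autosomal long tracts were captured. Between their bounds, 68.5% of autosomal peaks held a CpG in the reference sequence and 53404 held none. Captured fragments can reach past the bounds of a peak, so a CpG beside it was not counted. A CpG that differs between C57BL/6N and the reference would not be seen either. Whether capture needs a CpG was therefore not tested. Peak width had a median of 196 bp (quartiles 159 and 241). The score of MACS2, which is 10 times the −log10 of the q-value and orders peaks only within this list, had a median of 108 (quartiles 62 and 236) and ran from 13 to 2356.

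Capture of a tract moved with its base composition much more than with its CpGs. Of autosomal long tracts with a GC content of at least 45%, 63.0% were captured (Wilson 95% interval 62.8 to 63.2, n = 256226), and of those under 30% only 5.77% were (5.61 to 5.94, n = 78254). Intervals here and below cover counting error only. Tracts of at least 60 bp were captured in 80.2% of cases with a CpG and in 43.2% without one, but that difference did not hold within classes of GC content. At a GC content of at least 45%, the captured share was 92.6% with a CpG (92.2 to 93.0, n = 14713) and 95.1% without (94.6 to 95.5, n = 8921). From 40% to under 45% it was 80.4% with and 87.2% without. From 30% to under 40%, the captured share was 47.7% where a CpG was present (45.2 to 50.2) and 49.8% where none was (48.4 to 51.2), and these intervals overlap. Below 30% the order turned, with 7.98% against 4.85%. Tracts of 24 to 59 bp were captured less often at a GC content of at least 45%, at 55.2% with a CpG and 61.9% without. In these shorter tracts the gap was wider from 30% to under 45%. It was 36.7% against 49.0% from 40% to under 45% and 24.5% against 36.1% from 30% to under 40%. Below 30% the shares were 5.44% with a CpG (4.69 to 6.31) and 5.98% without (5.79 to 6.18), and these intervals overlap. The list of peaks from the unmethylated DNA of TKO ES cells, a stem cell line without Dnmt1, Dnmt3a and Dnmt3b, had the opposite order at a GC content of at least 45%. There, 20.6% of tracts of at least 60 bp were captured with a CpG (19.98 to 21.3) and 11.6% without (10.9 to 12.2), and of those of 24 to 59 bp 7.14% (6.96 to 7.34) and 6.56% (6.44 to 6.68). At a lower GC content that order was not seen. From 40% to under 45% the TKO shares were 25.6% with a CpG and 26.0% without in tracts of at least 60 bp, with intervals that overlap, and 6.99% and 10.8% in the shorter ones. From 30% to under 40% they were 6.19% and 8.05%, again overlapping, and 3.31% and 6.17%. The SssI and TKO lists differ in the source of the DNA and in total peaks, 175775 against 14694, as well as in methylation, and these cannot be told apart. The effect of base composition on amplification and sequencing was not tested.

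**Figure D1:**
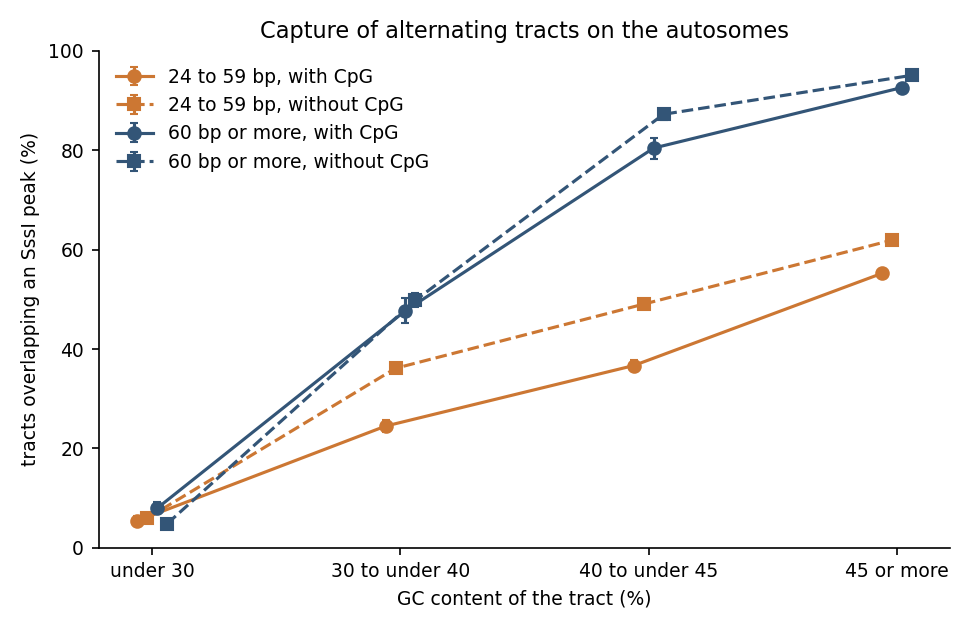
Share of autosomal long tracts that overlap an SssI peak (vertical axis, percent) by the GC content of the tract (horizontal axis, 4 classes), with lines for tract length and for the presence of a CpG and bars for Wilson 95% intervals. Tracts of at least 60 bp go from under 10% in the lowest class to 92.6% and 95.1% in the highest, with small gaps between the lines with and without a CpG. Tracts of 24 to 59 bp show wider gaps, up to 36.7% against 49.0%, with the CpG-free line on top.

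The autosomes differed little in density. Over 2395.91 Mb of known bases there were 70.7 peaks per Mb (exact Poisson 95% interval 70.3 to 70.99), and the peaks covered 1.62% of these bases. Chromosome 5 was densest at 78.7 per Mb (77.3 to 80.1), followed by chromosome 8 at 78.0, chromosome 9 at 77.9 and chromosome 11 at 77.7, whose intervals overlap with it. Chromosome 3 was sparsest at 63.3 per Mb (62.1 to 64.6), next to chromosome 14 at 64.4 (63.0 to 65.8), with which its interval overlaps. The ratio of densest to sparsest was 1.24. The density of long tracts themselves spanned about the same ratio, 1.24, and the captured share ran only from 45.7% to 50.6%. Across the 19 autosomes, the rank correlation of peak density was 0.963 with tracts of at least 45% GC per Mb. The correlation was 0.921 with all long tracts per Mb, 0.705 with CpGs per kb and 0.495 with GC content. These values describe chromosomes that all come from the same pooled libraries. The 45% limit was chosen after seeing the data, so the higher value for that class may partly reflect this choice.

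The sex chromosomes stood below all autosomes. X had 6445 peaks, 39.4 per Mb (38.5 to 40.4), which is 0.558 of the autosomal density, while its density of long tracts was 0.680 of the autosomal value. Of its long tracts, 35.2% were captured. X had fewer tracts and a lower captured share in both classes of GC content. Tracts of at least 45% GC numbered 66.7 per Mb on X and 106.9 on the autosomes, and those under 45% numbered 53.98 and 70.7. At a GC content of at least 45%, 55.0% of X tracts were captured (54.1 to 55.9) against 63.0% on the autosomes, and under 45% the shares were 10.8% (10.1 to 11.4) and 26.1% (25.9 to 26.3). The long and GC-rich tracts of X were captured about as often as elsewhere. With at least 60 bp and 45% GC, a peak lay over 90.2% of X tracts that hold a CpG (87.4 to 92.4, n = 530) and over 95.7% of CpG-free ones (92.7 to 97.4, n = 299), and both intervals overlap those of the autosomes. Y had 46 peaks, 0.522 per Mb (0.382 to 0.696), and 0.838% of its long tracts were captured. The labels give the mice as male, so an X present once per cell and an autosome present in a pair enter the capture in unequal amounts, and this could not be told apart from other differences of X. On Y, 96.3% of known bases are masked as repeats in the reference, against 46.8% on X and 30.6% to 35.8% on the autosomes.

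**Figure D2:**
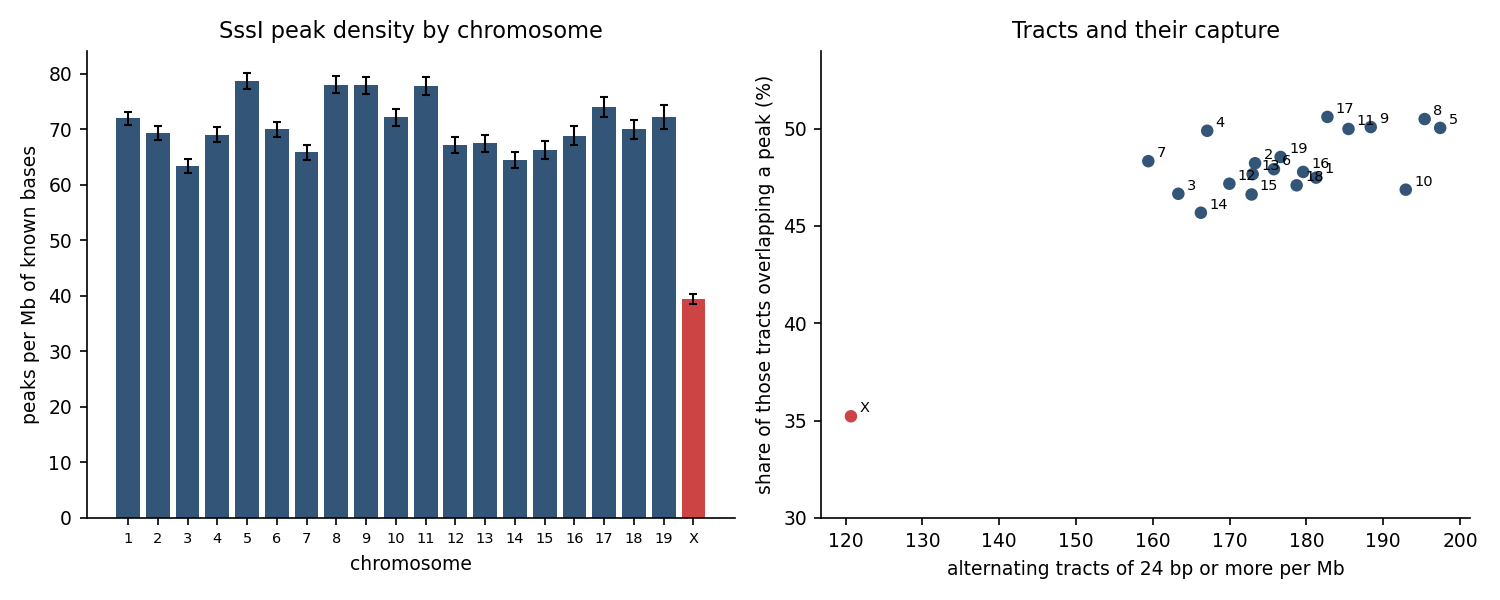
Peaks per Mb of known bases for the autosomes and X, with exact Poisson 95% intervals, and beside it the share of long tracts captured (vertical axis, percent) set against long tracts per Mb (horizontal axis), with a point for each chromosome. The axis of captured share starts at 30%, and Y, at 0.522 per Mb, is not drawn. X stands alone at 39.4 per Mb and 35.2% captured, below every autosome.

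Along the autosomes, peaks thickened toward the end away from the centromere. Each autosome was cut into 10 parts of equal known length, starting at the centromere, which lies at the first base end of mouse chromosomes. The median over the 19 autosomes was 55.9 peaks per Mb in part 1 (range 36.1 to 94.1), 67.3 in part 5 (43.1 to 100.1) and 89.1 in part 10 (67.9 to 125). Part 10 was denser than part 1 on 18 of 19 autosomes, and it was the densest of all parts on 8. The captured share moved less than the number of tracts, from a median of 44.9% in part 1 to 55.6% in part 10, while long tracts went from 146 to 223 per Mb.

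**Figure D3:**
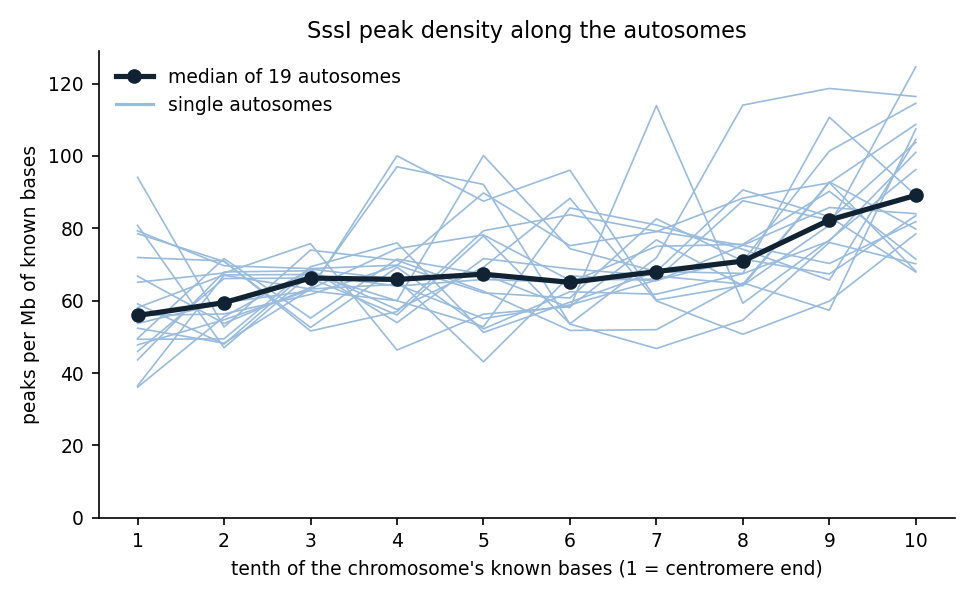
Peaks per Mb (vertical axis) in 10 equal parts of each autosome from the centromere (horizontal axis), with a thin line for each of the 19 autosomes and a thick line for their median. The median goes from 55.9 to 89.1 per Mb, and the single autosomes overlap widely in every part.

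In windows of 1 Mb the spread was larger. The 2376 autosomal windows with at least 90% known bases held a median of 68 peaks per Mb (quartiles 52 and 86, 5th and 95th percentiles 32 and 121). Windows of higher GC content held more peaks, with medians of 48.5, 57, 70, 83.2 and 91 per Mb from the lowest to the highest of 5 equal GC classes. Their captured share went with it, from 36.7% to 55.5%. The densest window, chr5:119000001-120000000, held 204 peaks and 525 long tracts, 72.4% of them captured. It contains Tbx5 and Tbx3, genes of T-box factors that pattern heart and limb. The next, chr1:120000001-121000000, held 182 peaks and has Steap3, a metalloreductase, 3110009E18Rik and Sctr, the secretin receptor, as its longest coding genes. A window in Sdk1, a cell adhesion gene, at chr5:141000001-142000000 held 181. One at chr9:116000001-117000000 held 180. Tgfbr2, a receptor for TGF-beta, is the only coding gene with its larger part in that window. Rbms3, at chr9:116572746-117629913, and the end of Gadl1 also reach into it. Another, chr9:120000001-121000000, held 172 and includes Myrip, Mobp and Ctnnb1, which encodes beta-catenin. These 5 windows had 370 to 525 long tracts per Mb, against a median of 172 over all windows.

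Neighbouring peaks lay close but not evenly. The distance between midpoints of 169265 neighbouring autosomal pairs had a median of 8307 bp (quartiles 3398 and 18047) and a mean of 14169 bp. Of the pairs, 6.32% were at most 1 kb apart (6.21 to 6.44) and 34.7% at most 5 kb. At the other end, 921 pairs were more than 100 kb apart and 87 more than 200 kb.

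Gene by gene, density varied by a ratio of 5.76 between the 5th and the 95th percentile of long genes. Of 20807 autosomal coding genes in GENCODE M21, 12098 (58.1%) held at least 1 peak. The 2372 genes with an annotated span of at least 100 kb had a median of 7.26 peaks per 100 kb (quartiles 5.07 and 9.81, 5th and 95th percentiles 2.55 and 14.7), and the highest had 27.7. Their density rose with tracts of at least 45% GC per 100 kb (rank correlation 0.866 over the 2372 genes) and with all long tracts (0.812), and less with GC content (0.567), CpGs per kb (0.507) or length (0.0294). These genes come from 1 list and some overlap, so the correlations are a description. Here too, the higher value for tracts of at least 45% GC may partly reflect a limit chosen after seeing the data. Density was lower in short genes, from 4.80 per 100 kb in genes under 10 kb to 7.82 in those of 100 to 300 kb, and long tracts per 100 kb went from 11.0 to 18.9. All bases inside coding genes had 74.0 peaks per Mb (73.4 to 74.5) and the rest of the autosomes 68.3 (67.9 to 68.8).

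Among the genes of at least 100 kb, the one with the most peaks per 100 kb was Daam2, a formin that acts on actin and in Wnt signalling, with 30 peaks in 108 kb at chr17:49456022-49564343, or 27.7 per 100 kb (18.7 to 39.5). Pcnx2, a pecanex family membrane protein gene, held 35 peaks and 23.8 per 100 kb (16.6 to 33.2). Eya2, a transcriptional coactivator and phosphatase of the eyes absent family, held 42 and also reached 23.8 (17.1 to 32.1). The intervals of these 3 overlap, so their order is not settled by the counts. Gadl1, an enzyme related to glutamate decarboxylase, had 38 peaks and 22.8 per 100 kb. Itga11, the alpha subunit of a collagen-binding integrin, had 24 and 22.6. Dnah8, a heavy chain of the sperm flagellar dynein, had 56 and 22.1. Grk3, a kinase of G-protein-coupled receptors, had 23 and 21.8. Next came Myrip, which links secretory organelles to myosin, with 37 peaks and 21.3 per 100 kb, and Cacng2 (stargazin), an auxiliary subunit of glutamate receptors, with 27 and 21.05. Gli2, a transcription factor of Hedgehog signalling, had 45 and 20.5. Mgat5, an enzyme that branches N-glycans, had 58 and also 20.5. Usp29, in the imprinted region of Peg3, had 48 and 20.3. Erg, an ETS factor of endothelium and blood, had 46 and 20.2. Myrfl, related to myelin regulatory factor, had 24 and Nfix, a nuclear factor I gene, had 20, and both stood at 19.9 per 100 kb.

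What these 15 genes shared was many long tracts. They had 24.9 to 66.5 long tracts per 100 kb, against a median of 17.95 over long genes, and in 13 of the 15 between 59.3% and 85.7% of those were captured, against a median of 47.4%. Usp29 and Mgat5 lay below that median, at 43.7% and 46.02%, with 119 and 113 tracts. Grk3 lay at the high end, with 60 of 70 tracts captured. A tract counts as captured through the same peaks by which these genes were picked. A raised captured share is therefore partly fixed by that choice. Nfix, with 25 tracts, had the fewest per 100 kb and the highest GC content of the 15, 53.1%. Of the 553 peaks in these genes, 550 lay in introns and 3 in exons, and 114 held no CpG. The share of exon bases in these genes was not set beside this split, so a preference for introns was not tested. In Cacng2, 24 of 27 peaks were in intron 1, in Usp29 35 of 48 in intron 3, in Gli2 29 of 45 in intron 2, and in Daam2 16 of 30 in intron 1. In Pcnx2 they were spread, with at most 5 in a single intron. The lengths of these introns were not set beside the counts, so whether peaks gathered in an intron beyond its length was not tested. The median score differed between these genes, from 80.5 in Mgat5 and 91 in Gli2 to 315 in Grk3 and 362 in Pcnx2, so the genes with the most peaks were not all genes with strong peaks.

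**Figure D4:**
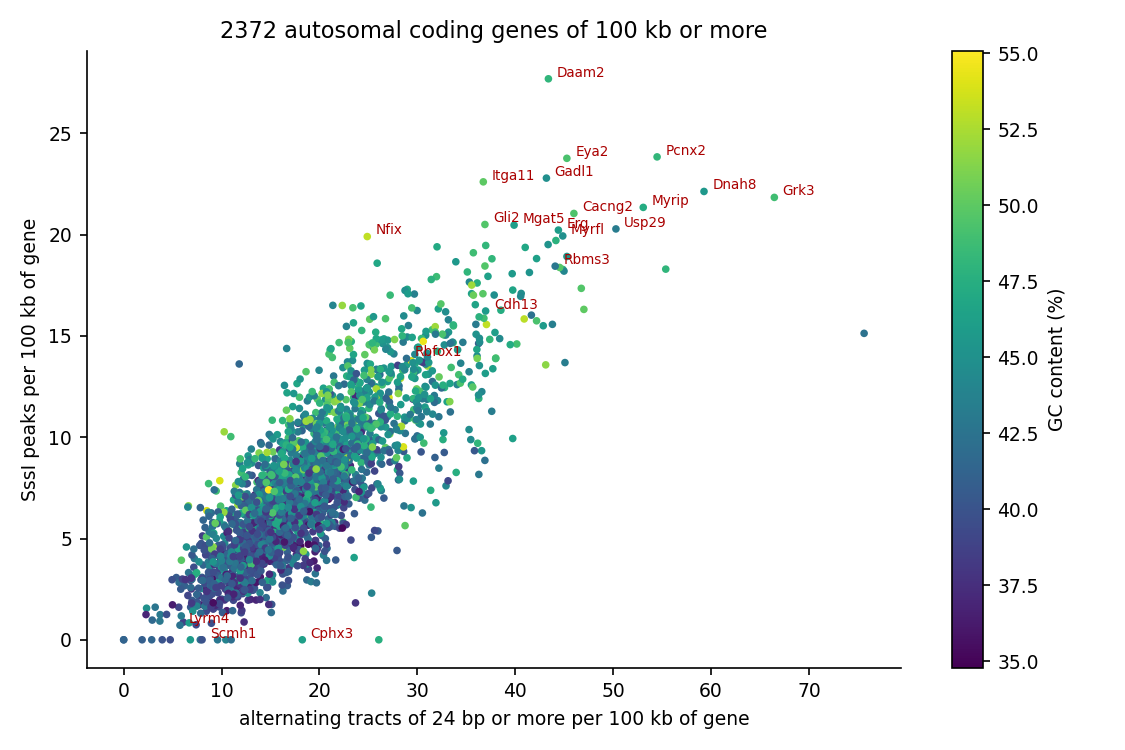
Peaks per 100 kb of the 2372 autosomal coding genes of at least 100 kb, set against their long tracts per 100 kb, with a point for each gene coloured by its GC content and some of the named genes labelled. Density goes up with tracts, and Daam2 has the highest at 27.7.

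At the other end, 14 genes of at least 100 kb held no peak, and 12 of them had fewer long tracts per 100 kb than the median long gene. For 9 of the 14 the length rests on the GENCODE annotation, since their RefSeq spans are 9.59 to 44.1 kb (C130026I21Rik, Gm3383, Gm3005, Gm3002, Cphx3, Obox1, Obox3, Zfp808 and Zfp935). Scmh1, a Polycomb gene, spans 125 kb at chr4:120405281-120530186 with 10 long tracts, of which 3 had a GC content of at least 45%, and its counting interval reaches 2.95 peaks per 100 kb. Vps50, a subunit of a complex of endosomal recycling, had 5 long tracts in 105 kb. Stard9, a kinesin-like gene, had 7 in 103 kb, and Slc22a27, of the organic anion transporter family, had 4 in 102 kb. Zfp808 and Zfp935, zinc finger genes, had 2 and 3. Obox1 and Obox3, homeobox genes of oocytes, had none in annotated spans of 168 and 160 kb. Genes with more tracts were C130026I21Rik with 29, Cphx3, a homeobox gene, with 28, Gm3383 with 22, Gm3002 with 15 and Gm3005 with 13. In these 5, 21.9% to 54.5% of the words of 31 bases occur again within the gene. Tmem267 had 6, but only 23.0 kb of its span are known bases. Such duplication was not limited to those 5 genes. It was 41.6% in Obox1 and 25.5% in Obox3, which have no long tract, and 68.4% in Tmem267. Of the 14 genes, 11 lay above the median of 5.16% in windows of 1 Mb. After these came Lyrm4, which takes part in making iron-sulfur clusters, with 1 peak in 139 kb.

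An absent peak in the deposited list is not always an absent call. The peak names carry the numbers of MACS2, which run in genome order, and 3891 of the numbers up to 179666 are missing, so peaks were taken out before deposit. Around 5 of the 14 genes (C130026I21Rik with 32 missing numbers, Gm3383 with 49, Cphx3 with 24, Tmem267 with 7 and Stard9 with 2) a peak may have been removed. Around 7 (Scmh1, Vps50, Slc22a27, Zfp808, Zfp935, Obox1 and Obox3) the neighbouring peaks have consecutive numbers, so none was removed there. Gm3005 and Gm3002 lie at the start of chromosome 14, where this could not be read. Over all long genes with neighbouring peaks on both sides, 8.28% had a missing number.

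The 5 genes with the most peaks in total all had annotated spans of over 1 Mb. Gm20388 had 422 peaks, but its annotated span of 4435 kb on chromosome 8 runs over 71 other coding genes, and its density was 9.52 per 100 kb. Fgfr2, a receptor for fibroblast growth factors, had 265 peaks in a GENCODE span of 2961 kb, whereas the RefSeq span of 104 kb holds 12. Rbfox1, a regulator of splicing in neurons and muscle, had 212 peaks (13.9 per 100 kb). Rbms3, which encodes an RNA-binding protein, had 195 (18.4 per 100 kb), and Cdh13, a cadherin gene without a transmembrane part, had 169 (16.2 per 100 kb). No other coding gene lies inside the spans of Rbfox1, Rbms3 and Cdh13. Zbtb43 itself had 3 peaks in 18.3 kb, with 2 long tracts, neither of them captured.

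Long peak-free stretches were most frequent on chromosomes 7 and 14. There were 927 stretches of known sequence over 100 kb without a peak and 99 over 200 kb, and the latter covered 38.7 Mb, 1.62% of the autosomes. Chromosome 7 had 20 of the 99 and chromosome 14 had 12. The longest, chr7:21670001-23293709, covers 1624 kb with Vmn1r139, a pheromone receptor gene, and 39 other coding genes, and the ninth, chr7:20798089-21620000, 822 kb with Gm6882 and Gm5157, lies next to it across unknown bases. The second, chr14:3000001-4331518, covers 1332 kb with Gm3005 and Gm3002 at the chromosome's start. The third, chr7:8482124-9586554, holds the pheromone receptor genes Vmn2r40, Vmn2r38, Vmn2r37 and Vmn2r39 in 1104 kb. The fourth, chr14:4752829-5852675, holds Gm3383, Gm3500, Gm3373 and Gm8281 in 1100 kb. The fifth, chr14:41880866-42868019, covers 987 kb with 1700024B05Rik and Gm7995, and the sixth, chr4:146891696-147877323, 986 kb with Zfp984, Zfp991, Rex2 and Zfp985. The seventh, chr13:65351626-66298729, covers 947 kb with Gm10324, and the eighth and the tenth, chr14:5955108-6795379 and chr14:6988257-7762665, cover 840 and 774 kb with Gm8206 and Gm3558.

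These 10 stretches hold 1001 long tracts of up to 160 bp, at 74.2 to 131 per Mb, which is below the median of 172 over windows of 1 Mb. Duplication was high in them. Of all 31-base words in a stretch, 46.9% to 88.0% occur again within it, against a median of 5.16% in windows of 1 Mb. Missing peak numbers were common too: 30 to 134 at each of the 9 that have a peak on both sides, with the 77 of the longest and of the ninth being the same ones. Over all stretches with a peak on both sides, missing numbers were found at 18 of 20 over 500 kb, 59 of 93 over 200 kb and 238 of 912 over 100 kb, against 0.418% of neighbouring pairs up to 100 kb apart. The parts of duplication and of removal in these stretches cannot be told apart here. The longest stretch whose flanking peaks have consecutive numbers is chr7:15108483-15663094, 555 kb with Obox1, Obox3 and Obox2, and it holds 1 long tract of 26 bp. Of its words of 31 bases, 78.6% occur again within it. Among windows of 1 Mb, the 4 without a peak, chr14:3000001-4000000, chr14:42000001-43000000, chr7:21000001-22000000 and chr7:22000001-23000000, lie wholly or mostly in these stretches, and the next, chr14:4000001-5000000, held 2 peaks.

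Gene families differed in density. Across all autosomal coding genes there were 7.35 peaks per 100 kb (7.29 to 7.40), and of 18 families and groups 5 lay above that by their interval, 4 below, and 9 had an interval that holds it. The number of genes with a peak, 58.1% over all, depends on gene length and is read here beside it, with a median span of 17.6 kb over all coding genes. Above by density were the subunits of voltage-gated calcium channels at 8.96 (8.14 to 9.84, all 25 genes with a peak), the cadherins at 8.59 (7.87 to 9.35, all 23), the collagens at 8.56 (7.77 to 9.42, 40 of 43), the glutamate receptors at 8.04 (7.47 to 8.64, 24 of 26) and the potassium channels at 7.90 (7.37 to 8.46, 68 of 92), whose lower bound still falls within the interval of all coding genes. Their median spans ran from 32.2 kb in the potassium channels to 279 kb in the glutamate receptors, and 99.2% of all genes of 100 to 300 kb hold a peak. Their captured shares of 51.0% to 53.6% and their 18.5 to 22.3 long tracts per 100 kb compare with 49.2% and 17.98 over all coding genes. The densest members of at least 20 kb were Cacng2 at 21.05, the kidney cadherin Cdh16 at 22.2 with 5 peaks, Col16a1, a fibril-associated collagen, at 19.4 with 10, Grin2a, an NMDA receptor subunit, at 17.1 with 73, and Kcng1, a modifying potassium channel subunit, at 32.4 with 7. Cacng8 with 1 peak, Cdh7 with 4 and Grin3a with 9 were the sparsest of theirs, and Col2a1, the cartilage collagen, and Kcnip2 had none.

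Below lay the vomeronasal receptors at 3.10 (2.64 to 3.62, 112 of 329 with a peak), the zinc finger genes named Zfp at 4.78 (4.41 to 5.18, 179 of 385), the olfactory receptors at 4.90 (4.42 to 5.43, 294 of 1128) and the protocadherins at 5.56 (5.06 to 6.09, 43 of 67). The median spans were 10.3 kb in the vomeronasal receptors, 17.4 kb in the Zfp genes, 5.99 kb in the olfactory receptors and 86.1 kb in the protocadherins. All genes under 10 kb had 4.80 peaks per 100 kb, which lies inside the interval of the olfactory receptors, and held a peak less often. The olfactory receptors were therefore not sparse for genes of their length. The vomeronasal receptors, the Zfp genes and the protocadherins had a lower density than all genes in the length class of their median span. Some of these genes lie where peak numbers are missing. The longest and the ninth peak-free stretch, with the same 77 missing numbers, hold 18 and 19 Vmn genes, the third, with 38 missing, holds 4, and the sixth, with 65 missing, holds 10 Zfp genes. These groups also had fewer long tracts, 9.93 to 16.7 per 100 kb, and lower captured shares, 34.3% to 42.7%. Many protocadherin genes are annotated over one another and share bases and peaks. Such peaks entered the sum more than once, so the interval of the protocadherins is too narrow. Whether they lie below all genes when each peak counts once was not tested. Vmn2r20 had 5 peaks and Vmn2r57 none, Olfr943 had 2 and Olfr164 none, and Zfp426 had 4 where Zfp808 had none. Pcdhga12 had 10 peaks. Pcdh17, with 17 long tracts in 95.4 kb of which 4 had a GC content of at least 45%, had none.

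The other 9 groups did not stand apart from all genes by their interval. The receptor tyrosine phosphatases stood at 7.79 (7.18 to 8.43), from Ptpro with 29 peaks to Ptprs with 1. The cytochrome P450 enzymes stood at 7.24 (6.25 to 8.35), from Cyp4v3 with 6 to Cyp2c38 with none. The ZBTB family stood at 6.83 (5.77 to 8.03), from Zbtb9 with 5 peaks to Zbtb11 with none, and 27 of its 40 genes (67.5%) had a peak, against 58.1% of all. The group named for Z-DNA binding, topology and repair stood at 5.61 (4.15 to 7.41). Its members ran from Adarb1 with 11 of the 49 peaks to Ercc4, part of a repair nuclease, with none. Adarb1 was placed in this group but is known for editing RNA. The Wnt ligands stood at 9.26 (6.88 to 12.2), from Wnt9a with 4 to Wnt3 with 1. The genes of lung cell types stood at 8.60 (6.22 to 11.6), from Pecam1, an endothelial adhesion gene, with 13 to Muc5b, an airway mucin without a long tract, with none. The keratins stood at 8.29 (5.71 to 11.6) with Krt80 at 3 peaks, the Hox genes at 7.95 (5.24 to 11.6) between Hoxb3 with 5 and Hoxd3 with 2, and the histones at 7.37 (4.50 to 11.4) between H2afy2 with 13 and H2afy with 1.

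**Figure D5:**
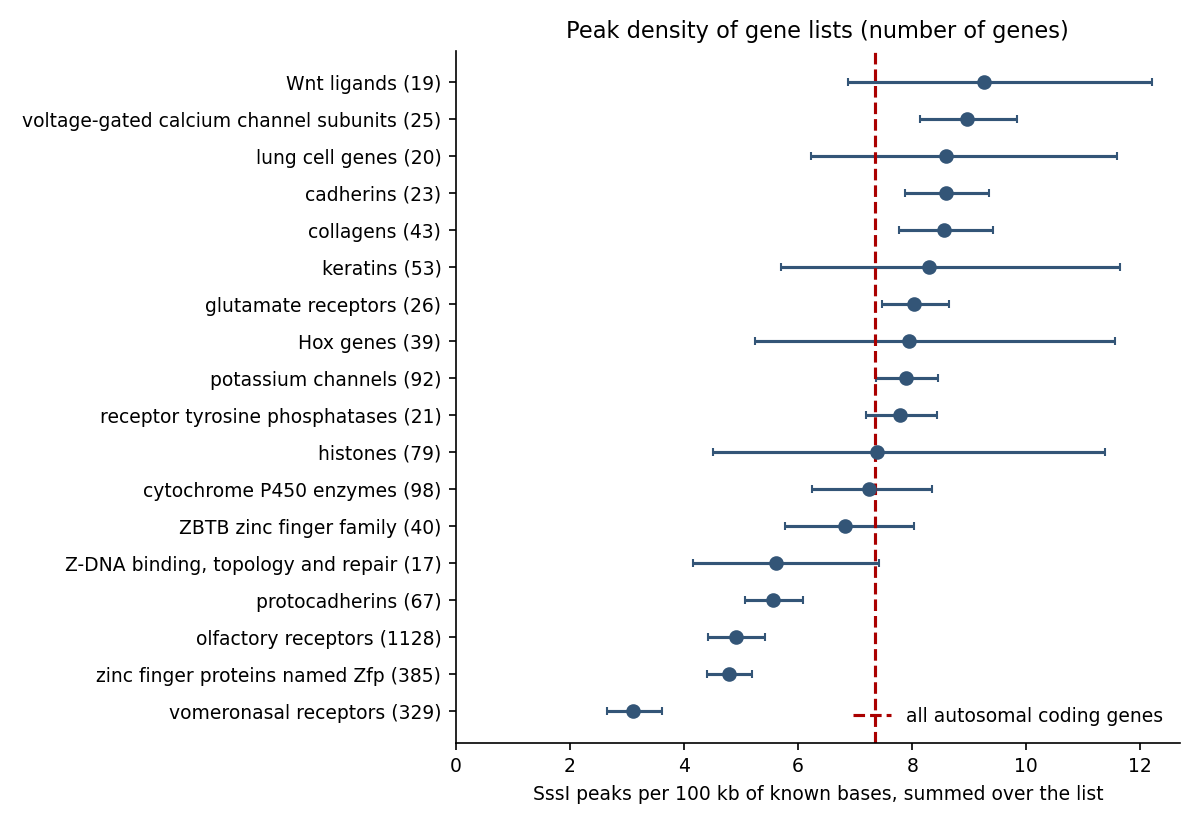
Peaks per 100 kb of 18 gene families and groups, with exact Poisson 95% intervals, and the value over all autosomal coding genes, 7.35, as a line. The vomeronasal receptors are lowest at 3.10, and the small groups have wide intervals that include the line.

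The highest-scoring peaks were wide and lay over several tracts. A score of 2356 was shared by 4 peaks, at chr16:11384098-11384667 in intron 4 of Snx29, a sorting nexin gene, at chr9:52965882-52966438, 132 kb from Ddx10, at chr7:43378614-43379161, 19.4 kb from Siglecf, and at chr7:132885020-132885563 in the annotated span of Fgfr2. Below them came a peak of 2346 in intron 1 of Cldn14, a tight junction gene. Peaks of 2344 lay in intron 3 of Prima1, which anchors acetylcholinesterase, in intron 1 of Rnf150 and in intron 1 of Gch1, the first enzyme of tetrahydrobiopterin synthesis, and 2 more lay 586 kb from Sorcs3 and 224 kb from Gm49339. Peaks of 2335 lay in intron 25 of Cep290, a gene of the ciliary base, in intron 2 of Jarid2, a Polycomb partner, and outside coding genes nearest to Plekhb2 and Chd2. The last of the 15, with 2330, lay 0.884 kb from Fam20c, a kinase of secreted proteins. Of the 15 peaks, 8 were in introns, 7 outside genes and 0 in exons, counts that were not compared with the share of bases in exons. Their widths ran from 454 to 1079 bp, their number of alternating tracts from 2 to 27 and their longest tract from 19 to 71 bp. A CpG was present in 14 of them, but inside the longest tract in only 2, Prima1 with 6 and Jarid2 with 10. The peak nearest to Gm49339 held no CpG and 14 tracts, and the one in Cep290 held 25 CpGs and 27 tracts.

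The same held for the highest-scoring 1% of autosomal peaks, 1693 peaks with scores from 1773 up. A further 13 peaks tied at 1773 were left out, since ties were ordered by width, wider first. They had a median width of 515 bp, against 196 in the rest, with a median of 5 tracts against 1 and 5 CpGs against 1. The longest tract did not differ in that way, with medians of 45 bp and 46 bp. A wider peak has more room for tracts and CpGs, and the part of width in these counts was not tested. Of the 1693, 46.5% lay inside coding genes (44.1 to 48.9), where 41.3% of known bases and 43.3% of all autosomal peaks lie. They fell in 685 genes, 82 of which held 2 or more. Gm20388 held 14, Camta1, a calmodulin-binding transcription activator gene, and Sox5, an SRY-related factor gene, held 6 each, Fgfr2 held 5 and Rbms3 held 4, as did Sez6l. Of the 15 densest genes, 9 held such peaks, 11 in all, with 2 each in Grk3 and Erg. The share of all long genes with such a peak was not set beside this. Genes picked for many peaks also have more peaks that can rank high.

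Within genes, peaks were a little denser near the start. In genes of at least 100 kb cut into 10 parts from the start of transcription, part 1 held 8.30 peaks per 100 kb and part 10 held 7.16, with 20.4 and 17.7 long tracts per 100 kb and captured shares of 50.1% and 49.4%. Tracts with TG on the coding strand made up 54.5% of long tracts in coding genes and were captured in 50.8% of cases (50.5 to 51.1), and those with CA on that strand in 49.1% (48.7 to 49.4). In tracts of 24 to 35 bp the shares were 37.2% (36.7 to 37.6) and 36.2% (35.7 to 36.7), and these intervals overlap. In those of 36 to 59 bp they were 60.2% (59.8 to 60.7) and 58.3% (57.8 to 58.8). In those of at least 60 bp they were 61.8% (60.9 to 62.7) and 58.3% (57.3 to 59.2). In both of these classes the intervals do not overlap.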

How the data were processed

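Libraries of captured genomic DNA, 2 with MBP-ZBTB43 and 2 with MBP on M.SssI-methylated lung DNA, had been sequenced. Per the labels and the methods, reads were demultiplexed with bcl2fastq 1.9.0 and aligned to mm10 with BWA 0.7.17. The authors pooled duplicates and called peaks with MACS2 2.2.7.1 at default parameters, which keep a q-value under 0.05. SAMtools and deepTools 3.4.3 are also named in the submitters' processing notes. The deposited peak list gives, for each peak, a score of the authors' peak caller, which is −log10 of the q-value times 10 without its decimals. The score rises with depth as well as with strength of capture and was ranked only within the list. The methods give a minimum depth for the libraries, but the list gives no read counts, so the depth behind each peak and its precision are unknown. Peak numbers are missing from the list, which the methods tie to blacklisted regions and unplaced contigs only for the overlaps made there.

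From the list, midpoints were counted in windows, GENCODE M21 genes and RefSeq spans on GRCm38 and divided by known bases. Alternating tracts, CpGs and duplicated words of 31 bases were read from the same assembly. Intron and exon numbers are those of the annotated transcript over the midpoint. Intervals are exact Poisson for counts and densities and Wilson for shares, at 95%. Simulated data with known answers were used to test the counting. Scripts ran under Python 3.11.15 with matplotlib 3.10.9, scipy 1.17.1, numpy 2.4.6 and pandas 2.3.3. Samples were grouped from their titles. The genes named were the 15 of at least 100 kb with the most and the 15 with the fewest peaks per 100 kb, the 5 with the most peaks and with the most peaks of the highest 1%, the genes over the 15 highest-scoring peaks, up to 4 genes in each of the 10 longest peak-free stretches, up to 3 in each of the 5 densest and 5 sparsest windows, and the ends of each list among members of at least 20 kb. Zbtb43 was named as the gene of the captured protein, genes nearest to top peaks outside genes to locate them, and Sez6l, which tied, and Obox2 after their values were seen. Members and lists were chosen with earlier results of these data known. The classes of tract GC content and the check of missing numbers were chosen after seeing the data. Libraries of sperm DNA were not analysed here.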

Additional observations from a re-analysis of the deposited data

How the results depend on the processing

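No paired analysis was possible because the duplicates were pooled before peak calling, and for the same reason no library could be left out. Of 57 alternative values, 33 stayed within the counting error or within 1.5 times the count, 24 moved, and 3 were added after seeing the data. With a score of at least 50, autosomal density was 58.9 per Mb, the median spacing 9932 bp, the share within 1 kb 5.18%, the median over long genes 6.06 per 100 kb and the ratio of the 95th to the 5th percentile 6.75. With a score of at least 20 density was 70.3. Merging peaks within 200 bp gave 69.8 per Mb, 8481 bp and 5.07%, and counting N as length gave 68.7 per Mb. A gene minimum of 50 kb gave a median of 6.97, a ratio of 9.89 and 119 genes without a peak, and 200 kb gave a ratio of 4.56 and 2 such genes. The first kept 6 and the second 7 of the 20 densest genes. Genes that overlap no other coding gene gave a ratio of 5.18 and 4 genes without a peak. With consecutive peak numbers only (added later), 7 such genes remained and the longest stretch was 555 kb, while keeping stretches across N gave 2446 kb. Over all annotated genes, 53.1% of the highest-scoring 1% lay inside genes, and the sparsest window of 2 Mb held 4 peaks per Mb. The reads behind each peak were unknown, and without replicates a difference between genes carries only its counting interval.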
